A study of Mus musculus with 35 samples.

Results

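The genes described here encode the machinery that copies DNA in S phase. They were chosen as a list of 46 mouse symbols matched to the identifiers of the count table, and all 46 were found among its 52636 genes. Of these, 40 had enough counts to be tested, in a table of 10296 tested genes. The list holds the replicative helicase (Mcm2 to Mcm7), proteins that activate it (Cdc45, Gins1 to Gins4, Mcm10), origin licensing factors and their inhibitor (Orc1, Orc6, Cdc6, Cdt1, Gmnn), the sliding clamp and its loader (Pcna, Rfc1 to Rfc5) and the polymerases and primase (Pola1, Pola2, Prim1, Prim2, Pold1, Pold2, Pole, Pole2). It also holds lagging strand and single-strand factors (Fen1, Lig1, Rpa1, Rpa2), enzymes of nucleotide supply (Rrm1, Rrm2, Tyms, Tk1, Dut), factors that copy chromatin (Chaf1a, Chaf1b, Uhrf1, Dnmt1) and factors that protect the fork (Tipin, Clspn). RNA was sequenced from CD8 T cells, the cytotoxic T cell lineage, that had been sorted by flow cytometry from C57BL/6 mice. The groups are called KO (Lcre+/-;Dot1Lfl/fl), Het (Lcre+/-;Dot1Lfl/wt) and WT (Lcre+/-;Dot1Lwt/wt), so that every mouse, controls included, carried the Cre allele and the genotypes differed in how many copies of Dot1l were floxed. Each genotype was sampled as CD8 single positive thymocytes, as naive spleen cells (CD44- CD62L+) and as memory spleen cells (CD44+ CD62L+), with 4 libraries per group except WT thymus with 3, which makes 35 libraries in 9 groups. The labels give neither the promoter that drives Cre nor the part of Dot1l that is floxed. Separate animals are not stated for the replicates. The p values below therefore reflect only how much libraries vary within groups. In the main fit that spread was estimated for each gene over all 9 groups together, not from the compared groups alone.

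As background, replication starts when the origin recognition complex, CDC6 and CDT1 load MCM rings onto DNA, which become helicases once CDC45 and GINS join them, after which polymerase alpha with primase begins each strand and polymerases epsilon and delta extend it behind the PCNA clamp. Many of these genes are transcribed from promoters bound by E2F factors as cells enter S phase and are low in resting cells. Single positive thymocytes descend from dividing precursors, naive T cells are mostly at rest, and memory T cells divide slowly.

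Promoters of 5 of the genes are shown to set members that rose in KO thymus (Mcm5, Mcm6, Pola1 and Clspn) beside Rpa1, which did not pass there. They are RefSeq sequences of 300 bases, from 250 before to 50 after the annotated start of each gene (GRCm38.p6), read 5′ to 3′ on the strand of the gene. Capitals mark the letters searched for as E2F motifs, TTTCCCGC, TTTGGCGC, TTTCGCGC or TTTGCCGC on either strand, and overlapping matches run together. A match is a description of letters and not a measured binding site. Mcm5 lies at chr8:75109259-75109558 on the plus strand, Mcm6 at chr1:128359656-128359955 on the minus strand, Pola1 at chrX:93632106-93632405 on the minus strand, Clspn at chr4:126556730-126557029 on the plus strand and Rpa1 at chr11:75348334-75348633 on the minus strand.
Mcm5: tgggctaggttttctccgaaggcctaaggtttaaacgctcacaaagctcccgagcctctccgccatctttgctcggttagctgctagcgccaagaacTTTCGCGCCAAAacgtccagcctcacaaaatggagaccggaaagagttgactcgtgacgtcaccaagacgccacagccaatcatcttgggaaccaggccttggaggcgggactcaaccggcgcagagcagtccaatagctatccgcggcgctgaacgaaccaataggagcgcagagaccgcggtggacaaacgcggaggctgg
Mcm6: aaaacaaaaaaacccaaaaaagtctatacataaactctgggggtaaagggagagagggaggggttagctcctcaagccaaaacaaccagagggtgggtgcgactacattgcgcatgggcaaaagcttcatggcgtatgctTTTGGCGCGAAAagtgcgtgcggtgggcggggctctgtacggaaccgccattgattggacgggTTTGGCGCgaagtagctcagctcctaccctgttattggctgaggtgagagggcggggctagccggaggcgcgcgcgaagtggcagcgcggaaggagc
Pola1: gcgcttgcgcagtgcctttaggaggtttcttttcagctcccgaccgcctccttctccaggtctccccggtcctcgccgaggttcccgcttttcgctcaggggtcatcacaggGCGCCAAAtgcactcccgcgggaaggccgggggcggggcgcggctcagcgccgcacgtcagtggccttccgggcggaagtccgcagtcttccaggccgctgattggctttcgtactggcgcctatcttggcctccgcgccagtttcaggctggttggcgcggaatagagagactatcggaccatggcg
Clspn: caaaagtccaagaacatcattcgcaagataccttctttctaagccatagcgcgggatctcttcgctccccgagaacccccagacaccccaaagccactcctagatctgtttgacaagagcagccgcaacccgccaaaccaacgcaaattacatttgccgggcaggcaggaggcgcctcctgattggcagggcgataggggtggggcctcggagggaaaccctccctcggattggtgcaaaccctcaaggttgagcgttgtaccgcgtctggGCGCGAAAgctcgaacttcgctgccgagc
Rpa1: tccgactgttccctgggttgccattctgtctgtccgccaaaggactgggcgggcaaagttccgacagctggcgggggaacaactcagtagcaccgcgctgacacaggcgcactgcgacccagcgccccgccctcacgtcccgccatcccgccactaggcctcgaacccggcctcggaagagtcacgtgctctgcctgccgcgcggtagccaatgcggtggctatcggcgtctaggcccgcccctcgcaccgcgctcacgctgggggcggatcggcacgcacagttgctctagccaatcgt
The motif letters stood in Mcm5 as a pair of overlapping matches that began at -153 and -149 from the start, and in Mcm6 as an overlapping pair at -110 and -106 with another match at -47. Pola1 had 1 match at -138 and Clspn 1 match 22 bases into the transcript. In Rpa1, the subunit of replication protein A that was lower in KO spleen cells, these letters were not in the window. Of the 46 genes 37 had a RefSeq promoter, and 13 of these 37 (35.1%) held at least 1 match, against 2.32% of all 27025 promoters of the same length. The shares were 33.3% among 27 members called higher in KO thymus and 50% among 6 other tested members. The promoters shown were picked and do not represent these shares. Mcm2, Pcna, Rrm2 and Tyms rose in KO thymus without a match, while Gins3, Cdc6 and Cdt1 held a match and did not pass there. By comparison 4.55% of 22 promoters of mitosis genes held an E2F match, whereas 81.8% of them held TTTGAA or TTCGAA, the letters of the CHR element of mitotic promoters, which 18.9% of the replication promoters and 19.4% of all promoters held. The letters CCAAT stood in 64.9% of the replication promoters, 81.8% of the mitosis promoters and 37.9% of all promoters. Both of these searches also read both strands.

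Total counts ranged from 4809509 to 16879636 per library, and values are CPM, counts scaled to a common library size after TMM scaling. Counts of several members were low for a reason not found here. Fen1, the flap endonuclease, had 3 counts over all 35 libraries, Orc1 43, Gins2 54, Dut 58, Gmnn 91 and Orc6 156, and these 6 were not tested. Cdc6 had 157 counts in all, and Pcna, whose protein is abundant in dividing cells, had a mean of 79.4 counts per library. Among CD8 T cell markers Lck had group means of 895.7 to 1062 CPM, but Cd8a had 5.02 to 11.3 and Cd3d 1.24 to 2.51 CPM, so a low count cannot be read here as a low level of the transcript. Exons of Mcm7, Cdc45, Rfc2, Rfc4, Rfc5, Pole, Tk1, Chaf1a and Lig1 overlap genes on the other strand, as do those of Fen1, Gins2, Orc1 and Orc6, which were not tested, and exons of Pole2, Rpa1 and Mcm7 overlap other annotated genes on the same strand. The counts of these members are therefore uncertain, and the strand setting of the counting was not given in the sources used here. Dot1l, the targeted histone methyltransferase gene, was at 77.3 ± 1.69, 69.2 ± 4.41 and 67.1 ± 5.20 CPM in KO, Het and WT thymus libraries (SD), at 55.7 ± 1.26, 52.2 ± 2.79 and 49.5 ± 2.08 CPM in naive libraries and at 45.8 ± 1.88, 47.6 ± 4.72 and 45.4 ± 5.81 CPM in memory libraries. No difference of KO from Het or WT was called for it in any subset. Counts summed over all exons do not test a partial deletion, and KO below means the libraries labelled KO.

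The summed level of the replication genes was highest in the thymus in every genotype, and it stood above Het and WT cells in KO thymus and memory cells but not in KO naive cells. The sum of the 46 genes was 3255 ± 252 CPM in KO, 2264 ± 154 CPM in Het and 2044 ± 193 CPM in WT thymus libraries. In naive libraries it was 836.9 ± 25.9 CPM in KO, 840.7 ± 9.18 CPM in Het and 837.8 ± 5.94 CPM in WT. In memory libraries it was 1232 ± 51.6 CPM in KO, 928.2 ± 34.7 CPM in Het and 929.2 ± 60.3 CPM in WT. No KO library overlapped a Het or WT library in thymus (2898 to 3479 in KO, 2139 to 2465 in Het, 1825 to 2190 in WT) or in memory cells (1194 to 1304 in KO, 886.1 to 968.1 in Het, 855.8 to 995.8 in WT), whereas in naive cells the KO values (804.3 to 861.0) spanned those of Het and WT. In bulk RNA, more cells of a type and more RNA per cell cannot be told apart. As a share of all counts, without TMM scaling, the genes took 0.3% to 0.353% in KO, 0.213% to 0.253% in Het and 0.183% to 0.232% in WT thymus libraries. In memory libraries the share was 0.12% to 0.13% in KO, 0.0857% to 0.0928% in Het and 0.0834% to 0.0963% in WT. In naive libraries it was 0.0858% to 0.0897% in KO, 0.0815% to 0.0856% in Het and 0.0797% to 0.0861% in WT. By this measure every KO naive library lay above every Het naive library, and KO and WT overlapped slightly. The near equality of the naive sums thus depends on the scaling.

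**Figure D1:**
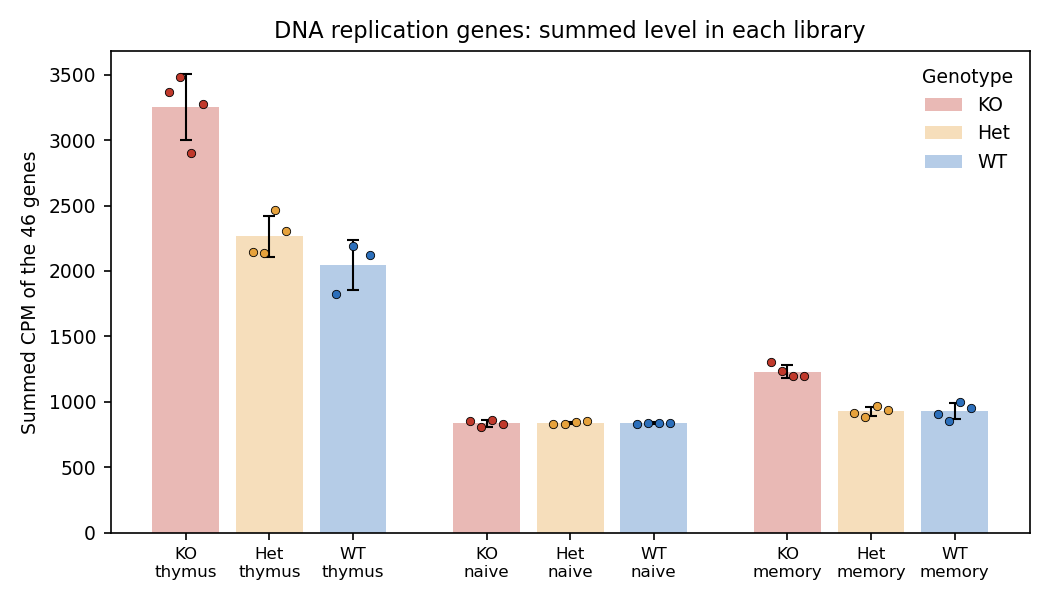
Summed level of the 46 DNA replication genes (CPM, linear axis from 0) in each library; points are libraries, bars and whiskers are group means and SD, with KO, Het and WT in thymus, naive and memory cells. KO libraries stand above Het and WT in thymus (3255 against 2264 and 2044 CPM) and memory cells (1232 against 928.2 and 929.2 CPM) and span their range in naive cells.

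**Figure D2:**
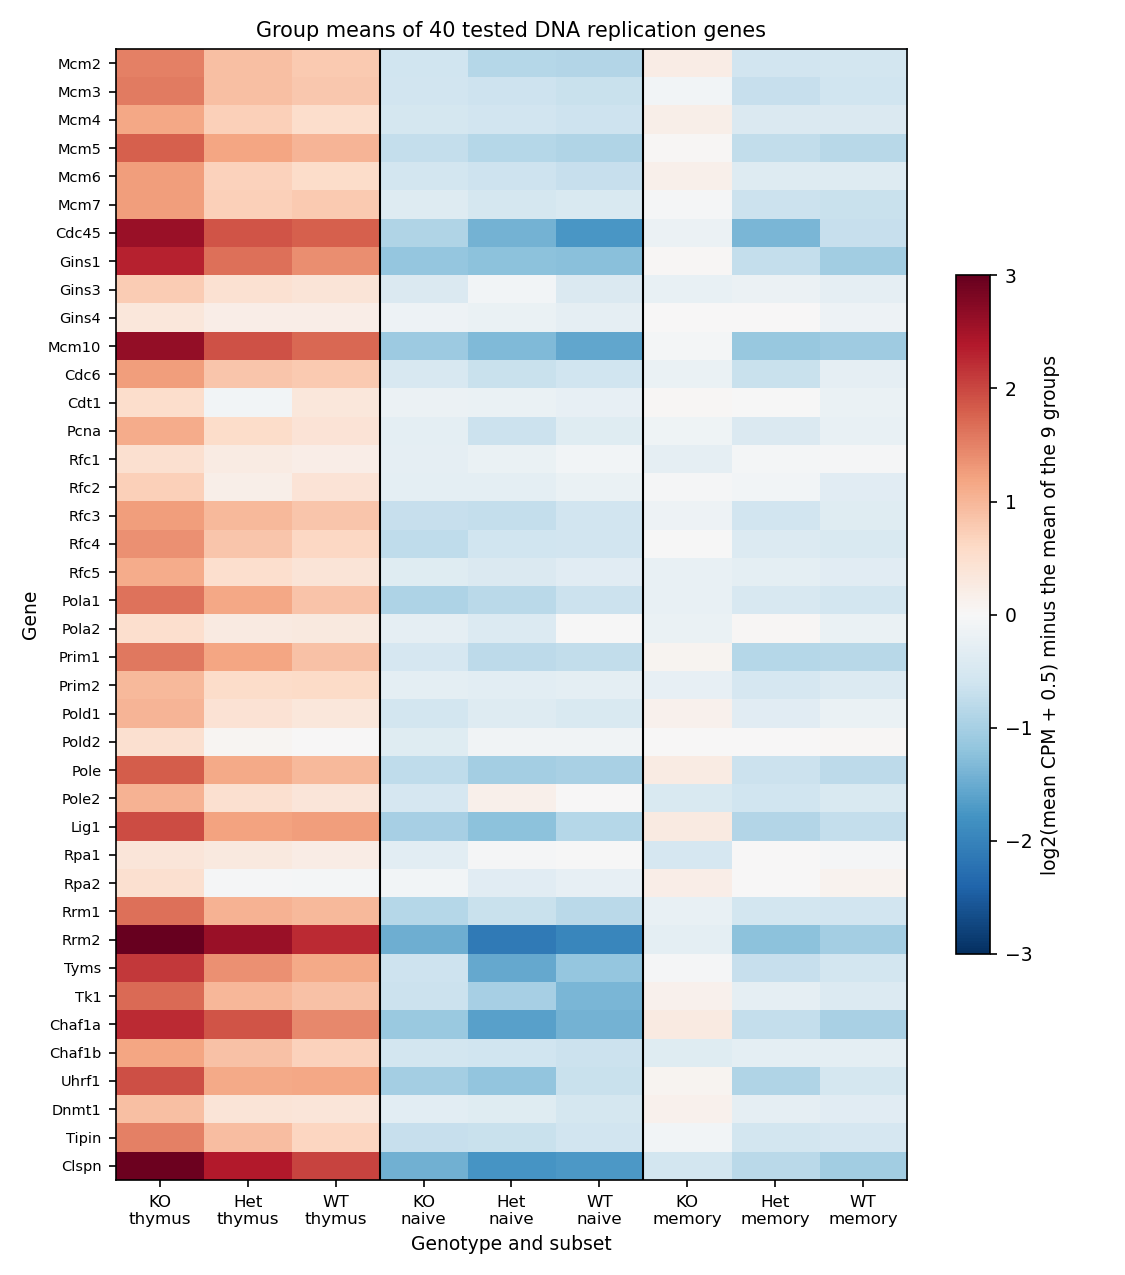
Group means of the 40 tested genes, as log2(mean CPM + 0.5) minus the mean of the 9 groups, with genes in order of role and groups ordered by subset. The thymus columns are the reddest for nearly all genes, and in memory cells the KO column stands above the Het and WT columns for all 6 Mcm genes.

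In the thymus, KO cells had more RNA of nearly the whole replication machinery than WT cells. Of the 40 tested members 31 were higher and 0 were lower in KO than in WT libraries, against 18.6% of all tested genes called in either direction, 11.9% higher and 6.77% lower. All 40 log2 fold changes were positive, with a median of 0.71 (1.63-fold) against 0.02 over all tested genes. A member was called at an adjusted p under 0.05 in edgeR's quasi-likelihood test, with Benjamini-Hochberg adjustment over all tested genes. Fold changes below are on the log2 scale with their standard error, and levels with the SD over libraries. Values of KO and WT libraries did not overlap for 36 members, all higher in KO, against 17.3% of all tested genes higher and 11.1% lower.

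All 6 Mcm genes rose in KO thymus. Mcm2 (chromosome 6, 88883474 to 88898780, GRCm38) was at 293, 318, 273 and 332 CPM in KO libraries and 169.8, 193 and 189 CPM in WT libraries. Every KO library stood above every WT library, with a log2 fold change of 0.72 ± 0.07 (SE, adjusted p = 8.29e-10). Mcm5 had the largest fold change of the 6, at 0.77 ± 0.12 on the log2 scale. Mcm7 had the smallest (0.48 ± 0.11), at 105, 126, 101 and 104 CPM in KO and 69.9, 84.9 and 78.6 CPM in WT libraries.

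Of the helicase activators Cdc45, Gins1 and Mcm10 rose, while Gins3 and Gins4 did not pass the test. Gins1, a subunit of the GINS ring, was at 12.4, 13.1, 13.1 and 13.5 CPM in KO libraries and 4.66, 7.73 and 7.76 CPM in WT libraries. The groups were apart, with KO libraries within a narrow range and WT replicate 1 the lowest (log2 fold change 0.93 ± 0.24, adjusted p = 0.00384). Mcm10, which helps the loaded helicase start, was at 13.1, 13.1, 9.68 and 9.01 CPM in KO and 4.53, 7.03 and 5.52 CPM in WT libraries (0.94 ± 0.31, adjusted p = 0.0281). Cdc45 stood at 58.5 ± 5.98 CPM in KO and 33.5 ± 3.61 CPM in WT libraries (0.80 ± 0.19). Gins4 was at 41.8 ± 0.727 CPM in KO and 37.5 ± 1.13 CPM in WT libraries, a log2 difference of 0.15 ± 0.10 with an adjusted p of 0.339. Neither tested licensing factor passed: Cdt1 had a log2 fold change of 0.23 ± 0.20 (adjusted p = 0.493), and Cdc6, with 7 to 20 counts in any thymus library, 0.67 ± 0.40 (adjusted p = 0.277). Mcm10 was no longer called without any 1 of KO replicates 1 and 2 and WT replicates 1 and 3 (log2 fold change 0.82 to 0.91, adjusted p 0.072 to 0.13).

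Among clamp and polymerase genes 11 of 14 rose. Pcna, the clamp, was at 14.9, 17.9, 12.6 and 15.1 CPM in KO libraries and 7.46, 9.07 and 10.9 CPM in WT libraries, with no overlap (0.71 ± 0.19, adjusted p = 0.00443). Of the clamp loader, Rfc4 (0.77 ± 0.14) and Rfc5 (0.74 ± 0.15) rose most, Rfc3 (0.41 ± 0.15, adjusted p = 0.0487) and the large subunit Rfc1 (0.27 ± 0.10, adjusted p = 0.0484) passed narrowly, and Rfc2 did not pass (0.31 ± 0.19, adjusted p = 0.296). Rfc3 was at 20.7, 24.5, 19.5 and 21.4 CPM in KO and 13.2, 17.0 and 17.9 CPM in WT libraries, and Rfc1 at 65.3, 57.4, 52.1 and 51.3 CPM in KO and 43.1, 49.2 and 47.1 CPM in WT libraries, in both cases without overlap. Pola1, the catalytic subunit of polymerase alpha on chromosome X, was at 300, 280.0, 235 and 275 CPM in KO and 138, 180.1 and 162 CPM in WT libraries. Here too the lowest KO library exceeded the highest WT library (0.76 ± 0.09, adjusted p = 4.24e-08). The catalytic subunits of polymerases epsilon (Pole, 0.85 ± 0.14) and delta (Pold1, 0.67 ± 0.12) rose with their partners Pole2 (0.68 ± 0.14) and Pold2 (0.48 ± 0.11). Pold2 was at 52.3, 61.8, 45.9 and 61.7 CPM in KO and 37.1, 41.0 and 41.0 CPM in WT libraries. Of the primase, the catalytic subunit Prim1 rose (0.72 ± 0.21), whereas Prim2 (0.42 ± 0.18, adjusted p = 0.102) and the polymerase alpha subunit Pola2 (0.25 ± 0.30, adjusted p = 0.648) did not pass. Rfc1 was no longer called without any 1 of KO replicates 1 and 2 and WT replicates 1, 2 and 3 (log2 fold change 0.20 to 0.32, adjusted p 0.0557 to 0.208). Rfc3 was no longer called without any 1 of KO replicates 1, 2 and 4 and WT replicates 1, 2 and 3 (log2 fold change 0.30 to 0.49, adjusted p 0.0549 to 0.258). Prim1 was no longer called without any 1 of KO replicate 2 and WT replicate 1 (log2 fold change 0.63 to 0.65, adjusted p 0.0505 to 0.0819).

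Nucleotide supply held the highest fold changes among the called members, and all 4 tested genes rose. Rrm2, the small subunit of ribonucleotide reductase, was at 169, 194, 152 and 184 CPM in KO libraries and 63.9, 112 and 84.8 CPM in WT libraries (1.00 ± 0.32, adjusted p = 0.0301). The groups did not overlap, but the WT libraries were spread over a wide range. Tyms, thymidylate synthase, was at 28.9, 32.7, 25.6 and 29.3 CPM in KO and 11.1, 17.9 and 14.4 CPM in WT libraries (0.99 ± 0.19, adjusted p = 0.000143). Tk1, thymidine kinase, and Rrm1, the large reductase subunit, rose by 0.90 ± 0.27 and 0.67 ± 0.11. Rrm2 was no longer called without any 1 of KO replicates 2 and 4 and WT replicates 1 and 3 (log2 fold change 0.82 to 0.97, adjusted p 0.0593 to 0.156). Tk1 was no longer called without any 1 of WT replicates 1 and 2 (log2 fold change 0.84 to 0.88, adjusted p 0.0611 to 0.0631).

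Lig1, the ligase of the lagging strand, rose (0.71 ± 0.18), as did Rpa2 (0.57 ± 0.15), but Rpa1 had the smallest change of all 40 genes, at 145 ± 9.82 CPM in KO and 133 ± 7.73 CPM in WT libraries (0.12 ± 0.08, adjusted p = 0.306). Of the chromatin factors the 2 tested subunits of chromatin assembly factor 1, Chaf1a (0.81 ± 0.26) and Chaf1b (0.49 ± 0.14), and the maintenance methyltransferase Dnmt1 (0.54 ± 0.15) rose. Uhrf1, which guides Dnmt1 to copied DNA, was at 5.23, 6.74, 5.35 and 6.62 CPM in KO and 3.33, 3.72 and 2.85 CPM in WT libraries. The groups did not overlap, but its adjusted p was 0.0597 (0.86 ± 0.32), and 0.0321 in DESeq2, 0.00439 with only thymus KO and WT libraries in the fit and 0.0184 with the replicate number as a block. Both fork protection genes rose: Clspn, the mediator claspin, was at 51.2, 53.9, 39.3 and 47.6 CPM in KO and 18.5, 30.6 and 26.4 CPM in WT libraries (0.91 ± 0.25, adjusted p = 0.0101), and Tipin at 58.7 ± 7.16 CPM in KO and 31.6 ± 3.58 CPM in WT libraries (0.89 ± 0.12). Clspn was no longer called without WT replicate 1 (log2 fold change 0.75, adjusted p 0.0754). Chaf1a was no longer called without any 1 of KO replicates 1 and 2 and WT replicates 1, 2 and 3 (log2 fold change 0.74 to 0.83, adjusted p 0.0523 to 0.0799). Chaf1b was no longer called without WT replicate 1 (log2 fold change 0.44, adjusted p 0.0695). Dnmt1 was no longer called without WT replicate 3 (log2 fold change 0.50, adjusted p 0.0516).

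**Figure D3:**
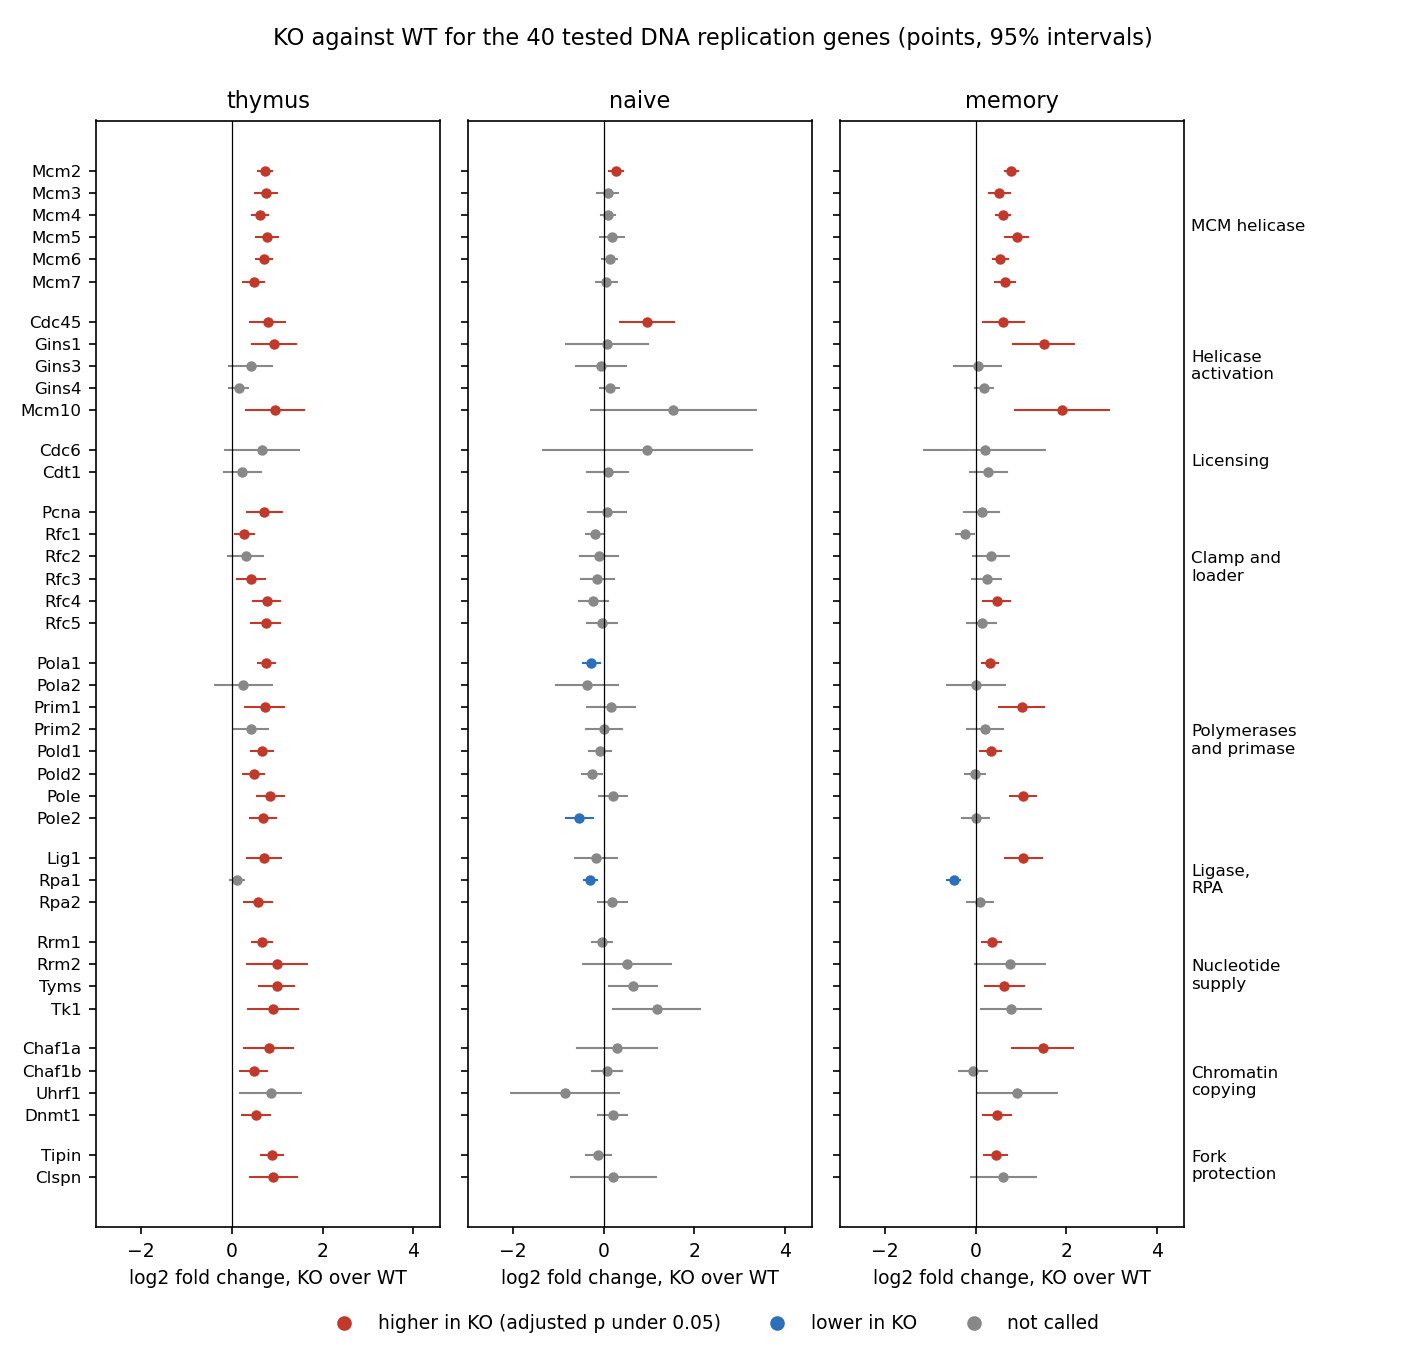
Log2 fold change of KO over WT (points) with 95% intervals for the 40 tested genes in thymus, naive and memory cells, grouped by role; red and blue points passed the test as higher and lower in KO. In the thymus panel every point lies right of 0 and 31 are red, but intervals of some genes that did not pass cross 0. The naive panel straddles 0 with 2 red and 3 blue points, and the memory panel has 20 red points and 1 blue point.

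Some markers of other cells and states were called in this comparison too, where 18.6% of all tested genes were called in either direction. The list of 10 genes of CD4 CD8 double positive thymocytes, the dividing precursors of these cells, summed to 22.6 to 35.6 CPM in KO, 15 to 31.6 CPM in Het and 13.5 to 21.6 CPM in WT thymus libraries, and 1 of its 5 tested genes, Rag1, was called higher in KO. Of its defining genes Cd4 had group means of at most 0.131 CPM and Ptcra of at most 0.0742 CPM. Of 8 genes listed for natural killer cells the 2 tested, the transcription factors Eomes (2.29 ± 0.21) and Tbx21 (2.86 ± 0.40), which effector and memory CD8 T cells also use, rose in KO thymus, and the list summed to 53.4 to 74.3 CPM in KO, 9.91 to 17.4 CPM in Het and 8.37 to 14.4 CPM in WT thymus libraries. The other 6 genes of that list, among them the receptor gene Ncr1, had 0 counts in every thymus library. Of 10 CD8 T cell genes Cd247 (-0.61 ± 0.09) and Cd8b1 (-0.85 ± 0.29) fell, and of 10 tested B cell genes Cd79b (1.26 ± 0.36) rose. For the double positive, CD8 T cell and B cell lists the share called was thus near or below that of all tested genes. Uncalled genes of the double positive and B cell lists had fold changes of both signs. The part of cell composition in the KO difference was not tested.

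With 1 floxed copy no member was called. By edgeR 0 of 40 members passed between Het and WT libraries in thymus, naive or memory cells, against 0%, 0% and 0.00971% of all tested genes. DESeq2 also called 0 in each subset, and 4, 0 and 2 members had an unadjusted p under 0.05. Without calls, 33 of the 40 log2 fold changes of Het over WT were positive in thymus. Their median was 0.118, against 0.00285 over all tested genes. In naive cells 17 were positive (median -0.0425) and in memory cells 21 (median 0.00192). Set against Het libraries, KO thymus had 27 members higher and 0 lower (background 19.1% in either direction, 11.9% higher and 7.28% lower), with values that did not overlap for 32 members all higher in KO (background 11.8% higher and 6.63% lower). Uhrf1 was called here (0.89 ± 0.30, adjusted p = 0.0298), at 5.23, 6.74, 5.35 and 6.62 CPM in KO and 2.87, 3.05, 3.01 and 4.03 CPM in Het libraries. Tyms rose by 0.77 ± 0.17, and the smallest called changes were those of Pold2 (0.43 ± 0.10) and Mcm4 (0.44 ± 0.08). For every comparison values are given for 7 members from 7 of the 9 roles, with Cdc6 given as counts where it had few and Fen1 not tested. Their log2 fold changes of KO over Het in thymus were 0.61 ± 0.07 for Mcm2, 0.71 ± 0.17 for Cdc45, 0.58 ± 0.17 for Pcna, 0.45 ± 0.08 for Pola1 and 0.89 ± 0.30 for Uhrf1 (called), and, not called, 0.66 ± 0.29 for Rrm2 and 0.56 ± 0.23 for Clspn. Uhrf1 was no longer called without any 1 of KO replicates 2 and 4 and Het replicates 1, 2 and 3 (log2 fold change 0.82 to 0.85, adjusted p 0.0657 to 0.0882). Between Het and WT thymus the log2 fold changes were 0.12 ± 0.07 for Mcm2, 0.08 ± 0.19 for Cdc45, 0.14 ± 0.19 for Pcna, 0.31 ± 0.09 for Pola1, 0.34 ± 0.32 for Rrm2, -0.03 ± 0.33 for Uhrf1 and 0.35 ± 0.25 for Clspn, with 0 called. In naive cells they were 0.02 ± 0.07 for Mcm2, 0.38 ± 0.31 for Cdc45, -0.30 ± 0.21 for Pcna, -0.16 ± 0.09 for Pola1, -0.22 ± 0.52 for Rrm2, -1.22 ± 0.62 for Uhrf1 and -0.25 ± 0.49 for Clspn, with 0 called. In memory cells they were -0.01 ± 0.07 for Mcm2, -0.69 ± 0.26 for Cdc45, -0.25 ± 0.20 for Pcna, 0.05 ± 0.09 for Pola1, -0.20 ± 0.41 for Rrm2, -0.59 ± 0.54 for Uhrf1 and 0.32 ± 0.38 for Clspn, with 0 called. The comparisons of KO with WT and with Het share the KO libraries.

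In naive cells the summed level differed little between KO and WT, but its parts did not differ in the same direction. The 6 Mcm genes summed to 369.1 to 433.0 CPM in KO, 370.7 to 381.9 CPM in Het and 356.3 to 370.7 CPM in WT naive libraries. The other 40 genes summed to 428.0 to 443.1 CPM in KO, 461.6 to 470.1 CPM in Het and 458.8 to 486.0 CPM in WT naive libraries, so that every KO library lay below every Het and WT library. The polymerase and primase genes (140.9 to 146.4 CPM in KO, 149.3 to 161.9 CPM in Het and 158.7 to 164.8 CPM in WT) and the lagging strand and single-strand factors (98.2 to 107.9 CPM in KO, 113.6 to 133.3 CPM in Het and 119.6 to 129.7 CPM in WT) were likewise lower in KO without overlap. These sums are descriptions, weighted towards the genes with most counts. Of the 40 tested members 24, the 6 Mcm genes among them, had a positive log2 fold change of KO over WT and 16 a negative one. The lower sum without the Mcm genes was therefore not shared by all its genes. It included Rpa1 and Pola1 (43.0 to 51.6 CPM in KO, 42.7 to 55.9 CPM in Het and 53.9 to 60.7 CPM in WT). The lagging strand and single-strand sum was mostly Rpa1 (83.7 to 96.9 CPM in KO, 102 to 123 CPM in Het and 108 to 117 CPM in WT). Lig1 and Rpa2 overlapped between the genotypes and Fen1 had almost no counts, so this sum describes Rpa1 rather than the group. Of 40 tested members 2 were higher and 3 lower in KO libraries, against 18.2% of all tested genes called in either direction, 11.1% higher and 7.11% lower, so the share of members called (12.5%) was below that of all genes. Values did not overlap for 3 members higher and 4 lower in KO, against 11.9% and 8.25% of all tested genes. The median log2 fold change was 0.07, against 0.00 over all tested genes. Gins1, Mcm10, Cdc6, Tk1 and Uhrf1 would not have passed the filter on low counts in naive libraries alone. Of the marker genes Eomes (1.28 ± 0.17), Tbx21 (2.22 ± 0.26) and the thymocyte gene Arpp21 (1.37 ± 0.47) rose and Cd247 fell (-0.68 ± 0.09) in KO naive cells, and their part was not tested.

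Mcm2 was at 75.9, 65.5, 73.5 and 65.0 CPM in KO and 55.9, 62.0, 57.9 and 56.6 CPM in WT naive libraries, just without overlap (0.27 ± 0.07, adjusted p = 0.0057). Cdc45 (chromosome 16, 18780447 to 18811987) was at 3.38, 4.93, 4.95 and 5.47 CPM in KO and 2.38, 2.94, 1.99 and 2.41 CPM in WT naive libraries (0.95 ± 0.29, adjusted p = 0.0158). The other 5 Mcm genes had log2 fold changes of 0.06 to 0.19 with adjusted p values from 0.329 to 0.803. Pole2, the second subunit of polymerase epsilon, fell, at 9.62, 9.09, 8.17 and 8.95 CPM in KO and 13.2, 12.4, 14.7 and 11.9 CPM in WT naive libraries (-0.54 ± 0.15, adjusted p = 0.00612). Rpa1 (chromosome 11, 75298166 to 75348324) fell as well, at 94.9, 88.7, 83.7 and 96.9 CPM in KO and 113, 117, 108 and 110.1 CPM in WT libraries (-0.29 ± 0.07, adjusted p = 0.00201). Pola1 was at 46.9, 51.6, 44.2 and 43.0 CPM in KO and 55.2, 53.9, 54.9 and 60.7 CPM in WT libraries (-0.28 ± 0.09, adjusted p = 0.0274). For these 3 genes every KO library lay below every WT library. Pcna (0.07 ± 0.20), Rrm2 (0.51 ± 0.48), Clspn (0.21 ± 0.46) and Uhrf1 (-0.85 ± 0.58) did not pass, and Cdc6 had at most 1 count in any naive library of KO or WT. Cdc45 was no longer called without any 1 of KO replicate 4 and WT replicate 3 (log2 fold change 0.83 to 0.85, adjusted p 0.0591 to 0.0713). Pola1 was no longer called without any 1 of KO replicates 3 and 4 and WT replicate 4 (log2 fold change -0.24 to -0.27, adjusted p 0.0618 to 0.11). Centring each library on its mean log level instead, a shift of -0.11 in the all-gene median, gave 1 member higher and 5 lower. Against Het naive libraries 2 members were higher and 2 lower in KO (background 16.9%, 10.5% higher and 6.5% lower), namely Tyms (1.12 ± 0.26) and Mcm2 (0.24 ± 0.07), and Rpa1 (-0.28 ± 0.07) and Pole2 (-0.70 ± 0.14). With the replicate number as a block, 3 were higher and 2 lower. The followed members had log2 fold changes of KO over Het of 0.24 ± 0.07 for Mcm2 (called), and, not called, 0.58 ± 0.26 for Cdc45, 0.37 ± 0.20 for Pcna, -0.12 ± 0.09 for Pola1, 0.73 ± 0.47 for Rrm2, 0.37 ± 0.66 for Uhrf1 and 0.46 ± 0.46 for Clspn. Mcm2 was no longer called without any 1 of KO replicate 1 and Het replicate 2 (log2 fold change 0.20 to 0.21, adjusted p 0.0518 to 0.0703).

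In memory cells part of the machinery rose in KO, including all 6 Mcm genes, 3 helicase activators, Pole, Lig1 and Chaf1a. Of 40 tested members 20 were higher and 1, Rpa1, was lower in KO than in WT libraries, against 22.2% of all tested genes called in either direction, 12.8% higher and 9.32% lower. The median log2 fold change was 0.45, against 0.01 over all tested genes. Values did not overlap for 15 members higher and 1 lower in KO, against 14% and 11.9% of all tested genes. Under mean log centring the all-gene median shifted by -0.105, and 13 members were higher and 2 lower.

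All 6 Mcm genes rose again. Mcm2 was at 133, 125, 111 and 130.4 CPM in KO and 71.9, 68.7, 76.7 and 73.3 CPM in WT memory libraries, without overlap (0.78 ± 0.07, adjusted p = 5.98e-12). Mcm5 rose by 0.90 ± 0.12, Mcm7 by 0.65 ± 0.11, Mcm4 by 0.60 ± 0.08, Mcm6 by 0.54 ± 0.08 and Mcm3 by 0.52 ± 0.11. Gins1 was at 2.44, 2.06, 2.60 and 2.11 CPM in KO and 0.777, 0.462, 0.878 and 1.17 CPM in WT libraries (1.5 ± 0.33, adjusted p = 0.000455). Mcm10 had the highest fold change (1.91 ± 0.50, adjusted p = 0.00409) on low counts, with 22, 13, 34 and 3 counts in KO and 1, 4, 8 and 3 in WT libraries, which overlapped. Cdc45 was at 8.03, 7.69, 9.36 and 7.47 CPM in KO and 2.56, 4.43, 9 and 6.09 CPM in WT libraries, with WT replicate 3 inside the KO range (0.61 ± 0.22, adjusted p = 0.0428). Cdc45 was no longer called without any 1 of KO replicates 1, 2, 3 and 4 and WT replicates 1 and 2 (log2 fold change 0.35 to 0.64, adjusted p 0.052 to 0.241).

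Pole was at 59.1, 53.5, 62.3 and 53.1 CPM in KO and 22.8, 27.6, 30.8 and 29.7 CPM in WT libraries and the groups did not overlap (1.05 ± 0.14, adjusted p = 4.32e-07). Its partner Pole2 was at 9.37 ± 1.10 CPM in KO and 9.37 ± 1.75 CPM in WT libraries (0.00 ± 0.14, 95% interval -0.29 to 0.30). Prim1 rose by 1.01 ± 0.24, Pold1 by 0.33 ± 0.11 and Pola1 by 0.31 ± 0.09. Pold1 was at 34.2, 33.2, 28.8 and 34.1 CPM in KO and 20.8, 26.4, 29.0 and 27.5 CPM in WT libraries, and Pola1 at 72.8, 68.8, 78.7 and 80.2 CPM in KO and 60.2, 58.9, 64.0 and 58.7 CPM in WT libraries. Lig1 (chromosome 7, 13277283 to 13311433) was at 12.6, 14.1, 15.9 and 15.6 CPM in KO and 6.29, 5.36, 10.2 and 6.36 CPM in WT libraries (1.05 ± 0.19, adjusted p = 6.85e-05). Chaf1a was at 3.81, 3.56, 4.37 and 5.64 CPM in KO and 0.854, 1.94, 2.30 and 1.17 CPM in WT libraries (1.48 ± 0.33, adjusted p = 0.000712), while its partner Chaf1b had a log2 fold change of -0.06 ± 0.15 (95% interval -0.37 to 0.24). Of the clamp and its loader, Rfc4 alone rose (0.46 ± 0.14), and Pcna was at 6.09 ± 1.57 CPM in KO and 5.71 ± 0.382 CPM in WT libraries (0.13 ± 0.19, 95% interval -0.26 to 0.51). Pold1 was no longer called without any 1 of KO replicates 1, 2 and 4 and WT replicate 1 (log2 fold change 0.24 to 0.32, adjusted p 0.0549 to 0.166). Rfc4 was no longer called without any 1 of KO replicates 1 and 2 and WT replicate 2 (log2 fold change 0.38 to 0.42, adjusted p 0.0502 to 0.0731).

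The other called members were Tyms (0.63 ± 0.21), Dnmt1 (0.46 ± 0.15), Tipin (0.44 ± 0.12) and Rrm1 (0.35 ± 0.10), and Rrm1 was at 49.5, 48.8, 63.1 and 59.8 CPM in KO and 38.8, 39.9, 46.1 and 48.8 CPM in WT libraries. Rrm2 was at 7.37, 8.72, 22.9 and 18.9 CPM in KO and 4.58, 5.73, 14.4 and 9.86 CPM in WT libraries, with replicates 3 and 4 above replicates 1 and 2 in both groups, and its adjusted p was 0.166 (0.76 ± 0.37) but 9.17e-05 with the replicate number as a block. Clspn (0.61 ± 0.35, adjusted p = 0.25) and Uhrf1 (0.91 ± 0.43, adjusted p = 0.137) did not pass. Without WT replicate 3 Uhrf1 was called (1.30, adjusted p 0.0461). Cdc6 had 2, 3, 3 and 1 counts in KO and 2, 1, 2 and 2 counts in WT libraries, too few to compare. Rpa1 was the 1 called member that fell, at 75.2, 82.1, 80.1 and 79.4 CPM in KO and 114, 99.4, 117 and 114 CPM in WT memory libraries. Every KO library lay below every WT library (-0.49 ± 0.07, adjusted p = 6.49e-07). Rrm1 was no longer called without any 1 of KO replicate 3 and WT replicate 1 (log2 fold change 0.26 to 0.30, adjusted p 0.0545 to 0.0943). Tyms was no longer called without any 1 of KO replicates 1, 2 and 3 and WT replicates 1 and 4 (log2 fold change 0.47 to 0.61, adjusted p 0.052 to 0.16). Dnmt1 was no longer called without any 1 of KO replicate 4 and WT replicate 2 (log2 fold change 0.41 to 0.42, adjusted p 0.061 to 0.0617).

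Of 10 tested B cell genes Ighm alone was called in KO against WT memory cells, and it fell (-1.07 ± 0.15). With Ighm at a mean of 97.2 CPM in KO and 203.9 CPM in WT libraries, the list of 12 B cell genes summed to 105 to 168 CPM in KO and 196 to 354 CPM in WT memory libraries. Of 10 CD8 T cell genes Cd247 (-0.43 ± 0.09), Zap70 (-0.21 ± 0.07), Cd8a (-0.75 ± 0.26) and Cd8b1 (-0.77 ± 0.28) fell, and Eomes (0.80 ± 0.16) rose. Of 5 tested double positive thymocyte genes Dntt alone was called, as higher in KO (3.88 ± 1.24), on very few counts. All 10 listed genes together summed to 0.656 to 1.55 CPM in KO and 0.329 to 1.43 CPM in WT memory libraries. Against Het memory libraries Dntt was not called (2.11 ± 1.08, adjusted p = 0.181). The part of these genes in the replication result was not tested. Against Het memory libraries 22 members were higher and 1 lower in KO (background 20.2%, 11.6% higher and 8.59% lower), with Mcm10 (2.0 ± 0.54) the largest rise after Cdc6, Pola1 (0.26 ± 0.09) the smallest rise and Rpa1 (-0.52 ± 0.07) the 1 that fell. The followed members had log2 fold changes of KO over Het in memory cells of 0.79 ± 0.07 for Mcm2, 1.29 ± 0.24 for Cdc45, 0.26 ± 0.09 for Pola1 and 1.5 ± 0.49 for Uhrf1 (called), and, not called, 0.38 ± 0.20 for Pcna, 0.96 ± 0.39 for Rrm2 and 0.28 ± 0.35 for Clspn. Pola1 was no longer called without any 1 of KO replicates 3 and 4 and Het replicates 1 and 3 (log2 fold change 0.22 to 0.23, adjusted p 0.095 to 0.111). Cdc6 was called on 2, 3, 3 and 1 counts in KO and 0 in each Het library, too few to give a size.

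Whether the KO difference itself changed between subsets was tested as an interaction. From thymus to naive cells the KO over WT difference, as a signed value, was lower for 15 members and higher for 0, against 6.34% of all tested genes called in either direction, 3.01% higher and 3.33% lower. The 2 largest such differences belonged to polymerase subunits, Pole2 (-1.22 ± 0.20, adjusted p = 0.000119) and Pola1 (-1.04 ± 0.13, adjusted p = 6.46e-07), which rose in KO thymus and fell in KO naive cells. The smallest called ones were Mcm2 (-0.46 ± 0.10) and Rpa1 (-0.42 ± 0.10). The comparison of naive with memory cells uses the same KO and WT naive libraries with the opposite sign, so the 2 interactions are not separate support. From naive to memory cells the signed KO difference was higher for 8 members and lower for 0, against 1.79% of all tested genes (0.67% higher and 1.12% lower). The 8 were Lig1 (1.22 ± 0.30, adjusted p = 0.0197), Pole (0.84 ± 0.20, adjusted p = 0.0194), Mcm5 (0.71 ± 0.18), Mcm7 (0.59 ± 0.16), Pola1 (0.59 ± 0.13), Mcm4 (0.51 ± 0.11), Mcm2 (0.51 ± 0.10, adjusted p = 0.00158) and Mcm6 (0.41 ± 0.11, adjusted p = 0.0428). The differences from thymus to naive cells for the followed members were -0.46 ± 0.10 for Mcm2 and -1.04 ± 0.13 for Pola1 (called), and, not called, 0.16 ± 0.34 for Cdc45, -0.64 ± 0.28 for Pcna, -0.49 ± 0.58 for Rrm2, -1.70 ± 0.67 for Uhrf1 and -0.70 ± 0.53 for Clspn. From naive to memory cells they were 0.51 ± 0.10 for Mcm2 and 0.59 ± 0.13 for Pola1 (called), and, not called, -0.35 ± 0.36 for Cdc45, 0.06 ± 0.28 for Pcna, 0.25 ± 0.61 for Rrm2, 1.76 ± 0.72 for Uhrf1 and 0.39 ± 0.58 for Clspn. Mcm5 was no longer called without any 1 of KO thymus replicate 2, KO naive replicate 4, WT thymus replicate 1 and WT naive replicates 1, 2 and 4 (log2 difference -0.51 to -0.59, adjusted p 0.0505 to 0.101). Rfc1 was no longer called without any 1 of KO thymus replicate 1, KO naive replicate 2, WT thymus replicates 1 and 3 and WT naive replicate 2 (log2 difference -0.41 to -0.49, adjusted p 0.0515 to 0.0825). Rfc5 was no longer called without any 1 of KO thymus replicate 1, KO naive replicate 3, WT thymus replicates 2 and 3 and WT naive replicates 2 and 4 (log2 difference -0.69 to -0.76, adjusted p 0.0554 to 0.0752).

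Lig1 was no longer called without any 1 of KO naive replicate 4, WT naive replicate 2 and WT memory replicate 2 (log2 difference 1.02 to 1.12, adjusted p 0.0546 to 0.0746). Mcm6 was no longer called without any 1 of KO naive replicates 1, 2 and 4, KO memory replicates 1 and 2, WT naive replicates 2, 3 and 4 and WT memory replicates 2 and 4 (log2 difference 0.37 to 0.43, adjusted p 0.0503 to 0.116). Pole was no longer called without any 1 of WT naive replicate 3 and WT memory replicate 1 (log2 difference 0.76 to 0.79, adjusted p 0.0515 to 0.0516). Mcm7 was no longer called without any 1 of KO naive replicates 1, 2 and 4, KO memory replicates 1 and 2, WT naive replicates 3 and 4 and WT memory replicates 1 and 2 (log2 difference 0.53 to 0.57, adjusted p 0.0599 to 0.101). Mcm5 was no longer called without any 1 of KO naive replicate 4 and KO memory replicate 1 (log2 difference 0.63, adjusted p 0.0597 to 0.0625). The count of 8 members was 5 without WT naive replicate 3, WT memory replicate 2 or KO memory replicate 1, and 4 without KO naive replicate 4.

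Memory cells were compared with naive cells within each genotype. In KO 25 members were higher and 1 lower in memory than in naive libraries (background 17.3%, 8.69% higher and 8.61% lower), in Het 7 higher and 1 lower (16.9%, 8.31% and 8.57%), and in WT 4 higher and 1 lower (15.1%, 7.68% and 7.38%). With the replicate number as a block the WT count was 9 higher and 1 lower, and same-numbered WT memory and naive libraries deviated together in every pair (correlations 0.206 to 0.31). Pole2 was the member lower in memory cells of WT (-0.47 ± 0.15) and Het (-0.81 ± 0.15), and Rpa1 in memory cells of KO (-0.20 ± 0.07). In WT the calls higher in memory cells were Tk1 (1.47 ± 0.45), Cdc45 (1.16 ± 0.28), Mcm2 (0.32 ± 0.07) and Mcm6 (0.30 ± 0.08). In KO the highest were Mcm10 (1.87 ± 0.50) and Uhrf1 (1.85 ± 0.49), and Mcm7 (0.36 ± 0.11) was the smallest rise. In Het the highest were Chaf1a (1.27 ± 0.43) and Clspn (1.23 ± 0.43) and the smallest rise was Mcm6 (0.25 ± 0.08). Gins1, Mcm10, Tk1 and Uhrf1 would have passed the filter on low counts in memory libraries alone but not in naive libraries alone. Any call of these genes as higher in memory cells is therefore no independent support. The followed members had log2 fold changes of memory over naive of 0.83 ± 0.07 for Mcm2, 0.81 ± 0.22 for Cdc45, 0.69 ± 0.09 for Pola1, 1.20 ± 0.39 for Rrm2, 1.85 ± 0.49 for Uhrf1 and 1.05 ± 0.37 for Clspn (called), and, not called, 0.21 ± 0.19 for Pcna in KO. In Het they were 0.28 ± 0.07 for Mcm2, 0.32 ± 0.09 for Pola1 and 1.23 ± 0.43 for Clspn (called), and, not called, 0.09 ± 0.28 for Cdc45, 0.21 ± 0.21 for Pcna, 0.98 ± 0.47 for Rrm2 and 0.72 ± 0.66 for Uhrf1. In WT they were 0.32 ± 0.07 for Mcm2 and 1.16 ± 0.28 for Cdc45 (called), and, not called, 0.16 ± 0.20 for Pcna, 0.10 ± 0.09 for Pola1, 0.95 ± 0.46 for Rrm2, 0.09 ± 0.52 for Uhrf1 and 0.65 ± 0.43 for Clspn.

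Tk1 was no longer called in WT without any 1 of WT naive replicate 2 and WT memory replicate 3 (log2 fold change 1.01 to 1.32, adjusted p 0.0696 to 0.165). Pole2 was no longer called in WT without any 1 of WT naive replicate 3 and WT memory replicates 3 and 4 (log2 fold change -0.36 to -0.45, adjusted p 0.0532 to 0.118). Chaf1a was no longer called in Het without any 1 of Het naive replicates 1, 2, 3 and 4 and Het memory replicates 3 and 4 (log2 fold change 0.76 to 1.34, adjusted p 0.06 to 0.287). Clspn was no longer called in Het without any 1 of Het naive replicates 1, 2 and 4 and Het memory replicates 3 and 4 (log2 fold change 1.03 to 1.25, adjusted p 0.0824 to 0.153). Mcm6 was no longer called in Het without any 1 of Het naive replicates 1 and 4 and Het memory replicates 3 and 4 (log2 fold change 0.20 to 0.23, adjusted p 0.0764 to 0.125). Rpa1 was no longer called in KO without any 1 of KO naive replicates 1 and 4 and KO memory replicates 1, 3 and 4 (log2 fold change -0.18 to -0.22, adjusted p 0.0545 to 0.13). Mcm7 was no longer called in KO without any 1 of KO naive replicates 1 and 4 and KO memory replicate 1 (log2 fold change 0.32 to 0.33, adjusted p 0.0522 to 0.0573). Mcm10 was no longer called in KO without KO memory replicate 3 (log2 fold change 1.45, adjusted p 0.0649). The count of 5 members in WT was 3 without WT memory replicate 3, and the count of 8 in Het was 3 without Het naive replicate 1 and 4 without Het memory replicate 3 or 4.

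Naive cells were below thymocytes for nearly the whole machinery. Of 40 members 40 were lower in naive than in thymus libraries of KO (background 44.1%, 22.4% higher and 21.7% lower), 37 in Het (39.5%, 19.8% and 19.7%) and 36 in WT (32.2%, 15.3% and 16.9%), and 0 were higher in any genotype. Of these 40, Gins1, Mcm10, Cdc6, Tk1 and Uhrf1 would not have passed the filter in naive libraries alone and were tested because of their counts in other groups, so that their calls as lower in naive cells are no independent support. The median log2 fold change was -2.08 in KO, -1.52 in Het and -1.30 in WT. Rrm2 fell furthest among genes with more than a few counts, at 6.21 ± 2.22 CPM in KO naive and 175 ± 18.4 CPM in KO thymus libraries (-4.82 ± 0.37), with log2 fold changes of -4.89 ± 0.40 in Het and -4.33 ± 0.41 in WT. Mcm10 was at 1 count in each WT naive library and at 5.69 ± 1.26 CPM in WT thymus libraries, and Cdc6 had 0 counts in every Het naive library. The smallest called falls were those of Rpa1 in WT (-0.25 ± 0.08) and Het (-0.33 ± 0.07), Rfc1 in WT (-0.30 ± 0.10), Pole2 in Het (-0.33 ± 0.13), and Gins4 (-0.51 ± 0.10) and Rpa2 (-0.59 ± 0.14) in KO. For the followed members the log2 fold changes of naive over thymus were -2.12 ± 0.07 for Mcm2, -3.64 ± 0.21 for Cdc45, -1.49 ± 0.18 for Pcna, -2.55 ± 0.09 for Pola1, -4.82 ± 0.37 for Rrm2, -4.13 ± 0.41 for Uhrf1 and -4.71 ± 0.31 for Clspn (all called) in KO. In Het they were -1.76 ± 0.07 for Mcm2, -3.51 ± 0.22 for Cdc45, -1.28 ± 0.19 for Pcna, -1.98 ± 0.09 for Pola1, -4.89 ± 0.40 for Rrm2, -3.62 ± 0.46 for Uhrf1 and -4.61 ± 0.33 for Clspn (all called). In WT they were -1.66 ± 0.08 for Mcm2, -3.80 ± 0.25 for Cdc45, -0.85 ± 0.20 for Pcna, -1.51 ± 0.09 for Pola1, -4.33 ± 0.41 for Rrm2, -2.43 ± 0.43 for Uhrf1 and -4.01 ± 0.35 for Clspn (all called). Rfc1 was no longer called without any 1 of WT thymus replicates 2 and 3 (log2 fold change -0.25 to -0.30, adjusted p 0.051 to 0.112). Rpa1 was no longer called without WT thymus replicate 3 (log2 fold change -0.21, adjusted p 0.0617). Pole2 was no longer called without any 1 of Het thymus replicates 2 and 3 and Het naive replicates 1, 2 and 4 (log2 fold change -0.26 to -0.34, adjusted p 0.0703 to 0.152).

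Members with a larger difference between thymus and naive cells tended to have a larger KO difference in the thymus. Across the 40 members the KO over WT log2 fold change in thymus and the naive over thymus log2 fold change in Het libraries, which share no libraries, had a Pearson r of -0.683 and a Spearman rho of -0.805. Over 31 members with a mean of at least 5 CPM they were -0.699 and -0.769. Between the KO differences in thymus and memory cells, which share no libraries either, r was 0.676 and rho 0.722. Genes are not independent replicates, so these values are descriptions without a p value, and low counts and depth are shared by all genes of a library.

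**Figure D4:**
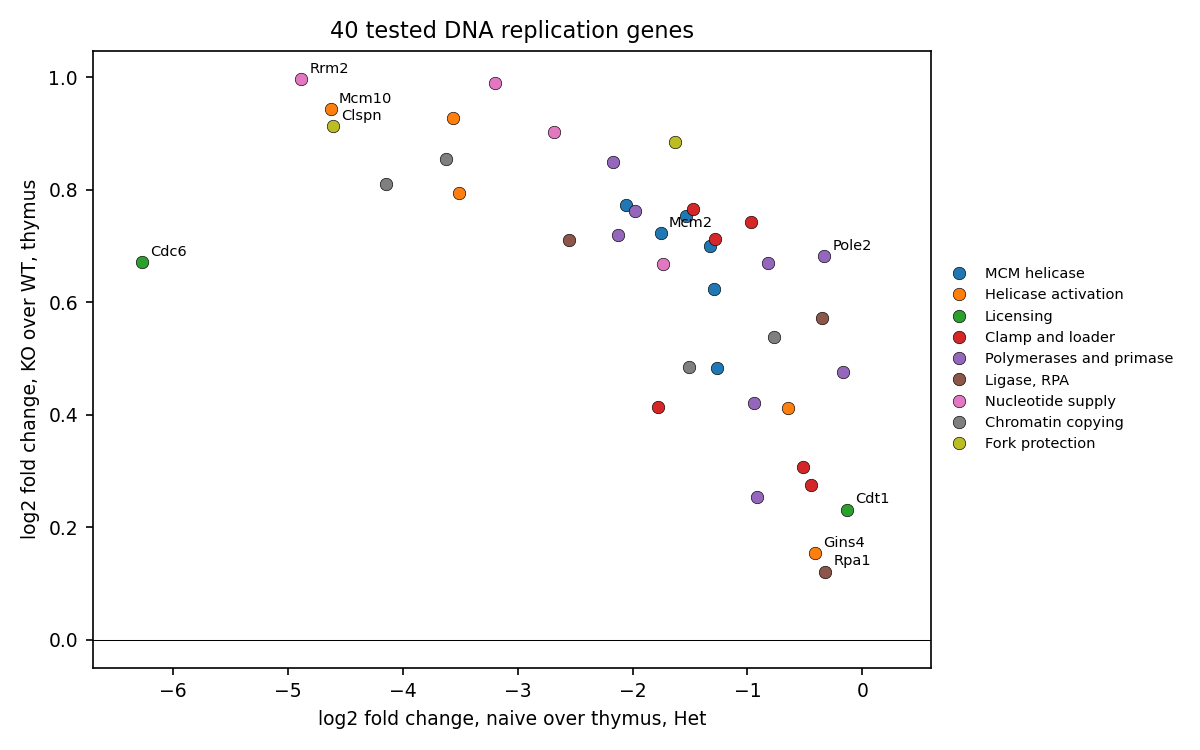
Log2 fold change of KO over WT in thymus (vertical axis) against that of naive over thymus in Het libraries (horizontal axis) for the 40 tested genes, coloured by role; the 2 axes share no libraries. Genes that were much lower in naive than in thymus Het cells, such as Rrm2, Mcm10 and Clspn, lie high, and Rpa1, Gins4 and Cdt1, which differed little, lie lowest; Cdc6 had 0 counts in Het naive libraries, so its horizontal value of a fit to no counts is not a measured fold (r = -0.683, rho = -0.805).

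Beyond the 46 genes, 3 neighbouring lists were read in the same fit. Of 37 tested genes that act around the fork, 17 were higher and 0 lower in KO thymus, 1 higher and 2 lower in naive cells, and 8 higher and 0 lower in memory cells. Among them Hells, a chromatin remodeller, rose by 0.96 ± 0.12 in thymus and 0.61 ± 0.12 in memory cells, and Slbp, which binds histone messages, by 0.64 ± 0.11 and 0.55 ± 0.11. Samhd1, which degrades nucleotides, rose in all 3 subsets (0.68 ± 0.10 in thymocytes, 0.52 ± 0.09 among naive and 0.61 ± 0.09 among memory cells). Of 24 genes that control the step from G1 to S, 8 were higher and 3 lower in KO thymus, 1 higher and 2 lower in naive and 6 higher and 2 lower in memory cells. In thymus Tfdp1, the partner of E2F factors, rose (0.75 ± 0.12) and the cell cycle inhibitor Cdkn1b fell (-0.78 ± 0.10). In memory cells Cdk2 (0.60 ± 0.11) and Rbl1 (0.49 ± 0.10) rose, and Cdkn2c (-1.97 ± 0.30) and E2f2 (-1.59 ± 0.28) fell. Of all tested genes 18.6%, 18.2% and 22.2% were called in the 3 subsets, thymus first and memory last.

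Genes of mitosis were read beside the replication genes in each subset. In KO thymus 15 of 22 tested mitosis genes were higher and 0 lower, among them Ect2 (1.00 ± 0.19), Plk1 (1.01 ± 0.22) and Cdc20 (0.78 ± 0.19), and the list summed to 1779 ± 167 CPM in KO and 985.4 ± 204 CPM in WT libraries. In naive cells 1 was higher and 2 lower, against 18.2% of all tested genes called in either direction. There the sum was 79.7 ± 13.0 CPM in KO and 126.3 ± 15.6 CPM in WT libraries, while the median log2 fold change of the 22 genes was positive, at 0.40. In memory cells 3 were higher and 2 lower, against 22.2% of all tested genes called in either direction. The memory sum was 149.5 ± 65.7 CPM in KO and 165.1 ± 48.8 CPM in WT libraries. Again the median log2 fold change was positive (0.48). For both spleen subsets the share of mitosis genes called was thus near or below that of all tested genes. In spleen cells the sum and the median thus had opposite signs. Racgap1, a regulator of cytokinesis, was the mitosis gene with the lowest adjusted p in both spleen subsets and fell in both (log2 fold change -1.92 ± 0.12 in naive and -1.74 ± 0.11 in memory cells), while it rose in thymus (0.50 ± 0.11). Kif23, a motor of the same complex, fell as well (-1.69 ± 0.21 and -0.95 ± 0.20).

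The ratio of the replication sum to the mitosis sum was 1.79 to 1.88 in KO thymus and 1.88 to 2.40 in WT thymus libraries, 9.18 to 14.1 in KO naive and 5.74 to 7.4 in WT naive libraries, and 5.13 to 13.6 in KO memory and 4.35 to 7.27 in WT memory libraries. KO memory replicates 1 and 2 had the highest replication sums of the spleen (1304 and 1234 CPM) with mitosis sums of 95.8 and 98 CPM. KO memory replicates 3 and 4 had replication sums of 1194.5 and 1194.3 CPM and mitosis sums of 233 and 172 CPM. The mitosis sum differed by replicate number in all 3 genotypes, with replicates 1 to 4 at 95.8, 98, 233 and 172 CPM in KO, 120, 126, 193 and 174 CPM in Het and 125, 129, 229 and 178 CPM in WT memory libraries. It was lower in KO than in the WT library of the same number in 3 of 4 cases. As the mitosis sum and the median mitosis gene differ in sign in spleen cells, the spleen ratios describe the sums alone.

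**Figure D5:**
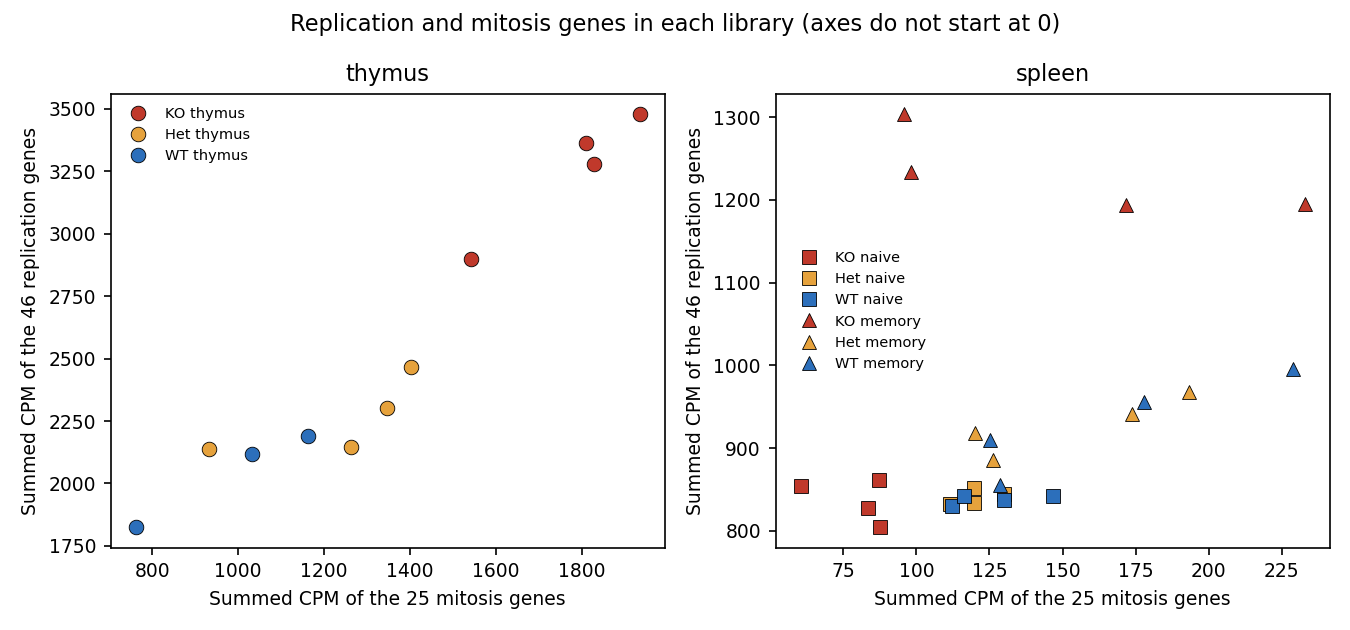
Summed CPM of the 46 replication genes (vertical) against summed CPM of 25 mitosis genes (horizontal) in each thymus library (left) and spleen library (right); the axes do not start at 0 and differ between panels. In thymus both sums are highest in the 4 KO libraries, and in the spleen the 4 KO memory libraries lie above all others on the vertical axis at mitosis sums from 95.8 to 233 CPM.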

How the data were processed

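CD8 T cell RNA was sequenced as stranded mRNA libraries with 65-base single reads, per the labels' protocols. The authors deposited whole-number counts of reads per gene, not normalized; the submitters' processing notes name TopHat2 2.1.0, HTSeq 0.9.1 and the builds GRCm38 and mm10, and the strand setting is not given in the sources used here. Identifiers were named with GENCODE M21, which matched 52489 of 52636.

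Total counts were 4809509 to 16879636 per library (median 10406516). All 35 libraries were fitted together as 9 groups (edgeR 4.0.16 in R 4.3.3, TMM scaling, filterByExpr, robust quasi-likelihood F test), with Benjamini-Hochberg adjustment over 10296 genes and a threshold of 0.05. Contrasts compared genotypes within subsets, subsets within genotypes, and the KO differences between subsets. CPM used TMM-scaled library sizes. Alternatives were RLE scaling, mean log centring, no filter and a stricter filter (CPM of 1 in 4 libraries), fits of only the libraries compared, a replicate block, a sex covariate, DESeq2 1.42.0 and leaving out each library. In data simulated for KO against WT thymus over 10159 genes, 47% of 100 genes changed 1.5-fold and 73% of 100 genes changed 2-fold were recovered.

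The members and lists were chosen with earlier results of these data known. Of the members, the text names in full the 4 highest and 4 lowest called for KO against WT, the 2 highest and 2 lowest called elsewhere, and 1 chosen per role (Mcm2, Cdc45, Cdc6, Pcna, Pola1, Fen1, Rrm2, Uhrf1, Clspn), of which Fen1 was not tested and Cdc6 is mostly given as counts; any other member may be named. Of the neighbouring lists, up to 4 called genes with the lowest adjusted p were eligible. Same-numbered libraries deviated together most evenly for KO and Het naive cells (correlations 0.144 to 0.262) and for WT memory and naive cells (0.206 to 0.31). In several other comparisons the correlations were also positive in every pair, with a smaller lowest value. Examples were KO and WT naive cells (0.0817 to 0.287) and KO memory and naive cells (0.0995 to 0.322). In the rest some pairs were negative, as for KO and WT thymus (-0.19 to 0.08). The labels do not say what a number marks. By Xist against Y-linked counts, replicate 3 was female and the rest male in every KO and Het group. In WT, replicates 2 and 3 were female in naive and memory cells, but only replicate 2 in thymus. The replicate block thus joined some libraries of unlike sex.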

Additional observations from a re-analysis of the deposited data

Results flagged for a closer look

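Of 232 sets of 4 libraries examined, 11 held a library far from the other 3 by Dixon's test; chance gives about 1 in 20. Mcm7 was at 126 CPM in KO thymus replicate 2, against 101 to 105 CPM in the others, and at 39.6 CPM in KO naive replicate 3, against 32.2 to 33.1 CPM. Pold2 was at 46.5 CPM in KO memory replicate 1 (others 37.6 to 38.1), and the sum of the mitosis list was 60.4 CPM in KO naive replicate 1 (others 83.6 to 87.6). In Het libraries Lig1 was at 9.37 CPM in memory replicate 3 (others 4.8 to 5.43) and Uhrf1 at 4.03 CPM in thymus replicate 4 (others 2.87 to 3.05). In WT naive libraries Cdc6 was at 0.105 CPM in replicate 4, which is 1 count (others 0), Pold1 at 23.9 CPM in replicate 2 (others 20.6 to 20.9), Rrm2 at 5.77 CPM in replicate 3 (others 3.68 to 3.77) and Uhrf1 at 1.04 CPM in replicate 3 (others 0.383 to 0.433). Rpa1 was at 99.4 CPM in WT memory replicate 2, the closest WT library to the KO range (others 114 to 117).

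The difference of KO from WT, as a signed log2 value, was lower in naive cells than in thymus for 15 members by the interaction test in edgeR. The change in it was -1.22 for Pole2, -1.04 for Pola1, -1.0 for Tipin and -1.0 for Rfc4. It was -0.79 for Rfc5, -0.76 for Pold1, -0.74 for Pold2, -0.72 for Rrm1 and -0.67 for Mcm3. It was -0.58 for Mcm5, -0.57 for Mcm6, -0.53 for Mcm4, -0.47 for Rfc1, -0.46 for Mcm2 and -0.42 for Rpa1, whose KO difference was -0.29 in naive cells and 0.12 in thymus. The signed difference was higher in memory than in naive cells for 8 members, by 0.41 for Mcm6, 0.51 for Mcm2, 0.51 for Mcm4, 0.59 for Pola1, 0.59 for Mcm7, 0.71 for Mcm5, 0.84 for Pole and 1.22 for Lig1. Both interactions share the KO and WT naive libraries.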

How the results depend on the processing

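The counts of members called in KO against WT stayed within 1.5 times the reported value in every setting other than leaving out a library: 28 to 31 in thymus (reported 31), 5 to 6 in naive cells (5) and 15 to 22 in memory cells (21). Leaving out 1 library gave 22 to 31, 3 to 6 and 17 to 23. The count for WT memory against naive cells (5) was 8 with no filter and 10 with the replicate block, and that for Het (8) was 5 with only the libraries compared. Leaving out 1 library gave 3 to 6 in WT, 3 to 9 in Het and 4 to 9 for the interaction of memory and naive cells (8). The replicate block gave 29, 6 and 21 members for KO against WT; besides the results given with it in the report, it ended the calls of Rpa2, Rfc1 and Rfc3 in thymus and Mcm3 in memory cells (adjusted p 0.0523, 0.0728, 0.0527 and 0.0687) and made Rrm2 a call in naive cells (0.0449). Mean log centring ended the calls of Mcm2 in naive cells and of Cdc45, Dnmt1, Pola1, Pold1, Rfc4, Rrm1 and Tyms in memory cells. Members whose sign changed were not called: Pcna in naive KO against WT was -0.040 with mean log centring and -0.14 to 0.18 with 1 library left out, negative without KO naive replicate 2 (-0.09) or WT naive replicate 4. Cdc6 in memory KO against WT was -0.031 to 0.41 with 1 library left out, negative without KO memory replicate 2. The cause was not tested. Depth limits Cdc6, Mcm10, Gins1, Tk1 and Uhrf1 in spleen cells, and the 6 members that were not tested.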
